A study of Homo sapiens with 30 samples.

Results

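The genes described here are 10 of those that build, load or activate the replicative DNA helicase in human cells. All were followed through interferon-gamma (IFN-γ) exposure of U87 and U251 glioblastoma cell lines. They were taken by symbol from the gene tables of both lines: the helicase subunits MCM2, MCM3, MCM4, MCM5, MCM6 and MCM7, the loading factors ORC1, CDC6 and CDT1, and the helicase activation factor MCM10. All 10 were among the 61471 genes listed for each line, and all 10 passed the filter on low values in both lines. RNA was sequenced from cells left without IFN-γ (Untreated), from cells kept in IFN-γ for 3 days (D3), 14 days (D14) or 28 days without a break (D28), and from cells whose IFN-γ was removed at day 14 and that then grew to day 28 in its absence (D28WO). Each line has 3 libraries per condition in the labels. For U87, a pair of columns carry the same name and were left out, so U87 had 2 libraries at D3, 2 at D14 and 3 in each of the other conditions, or 13 in all, and U251 had 15. The study's methods describe the replicates as separate cultures of each line, so p-values measure the spread between cultures of a single line and not between tumours. The untreated cells serve as the only control for all 4 treated conditions, and the sources differ in the IFN-γ dose and in the day the untreated cells were collected. The identity of both lines was not re-tested by the study.

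The lines were checked against glioma markers and the libraries against interferon-induced genes before the helicase genes were read. U251 listed the astrocyte filament gene GFAP at 222 to 1309 TPM (a level scaled for gene length and for library size) and the neural stem cell factor SOX2 at 105 to 176 TPM. U87 listed SOX2 at 0 to 0.411 TPM and GFAP at 2.33 to 19.1 TPM, so SOX2 was nearly absent there and GFAP was low, although the mesenchymal filament gene VIM was at 984 TPM or more in every U87 library. Of the markers of other cell types, PTPRC, CD3E, PECAM1 and RBFOX3 stayed at or below 2.38 TPM in every library of both lines, EPCAM reached 9.29 TPM in U87, and CD68, a lysosomal protein gene of macrophages that tumour lines also express, was at 76.8 to 445 TPM. Some of these markers moved with the licensing genes. In D28WO against Untreated of U87, 2 of the 4 other-cell markers tested were called lower by limma (EPCAM from 3.14 to 9.29 TPM down to 1.03 to 1.38 TPM, and CD68), and all 5 glioma markers tested were called, 3 lower and 2 higher. In U251, 4 of the 5 glioma markers tested were called lower in D28WO and in D14, and all 5 at D3 and D28. Of the 3 other-cell markers tested in U251, CD68 was called lower and RBFOX3 higher at D3, RBFOX3 higher at D28, CD68 higher in D28 than in D14 and CD68 lower in D28WO than in D28, with RBFOX3 at or below 2.19 TPM throughout. The part of these shifts in the results below was not tested.

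The interferon-induced transcription factor IRF1 went against the labels in part. In U87 the mean IRF1 level was 133 TPM in Untreated, 448 at D3, 122 in the libraries labelled D14, 480 at D28 and 510 in the libraries labelled D28WO. In U251 the corresponding means were 141, 589, 300.3, 603 and 620 TPM. The U87 libraries labelled D14, taken during exposure, thus sat at the Untreated level, and the libraries labelled D28WO, taken after 14 days without IFN-γ, sat at the D28 level in both lines. The chemokine gene CXCL10 differed from IRF1 in U251, at 504 TPM at D28 and 89.3 TPM in D28WO. What the labels say of these 2 conditions and what the interferon genes show cannot be reconciled from the files, and whether column names were shifted, given that the columns do not run in numerical order, was not tested. The condition names below follow the labels, which read Control for Untreated and D28W for D28. The counts were also computed without the libraries labelled D14 or D28WO, an alternative chosen after seeing the data. Without those labelled D14, D28WO against Untreated still gave 10 genes called lower in U87 and 9 in U251, and without those labelled D28WO, U251 still gave 4, 4 and 3 called genes at D3, D14 and D28 against Untreated. The few U87 counts that moved are given with the processing alternatives.

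DNA replication is licensed in G1 phase, when the origin recognition complex, CDC6 and CDT1 load pairs of MCM2 to MCM7 rings onto DNA. The rings stay inactive until S phase, when kinases and firing factors, MCM10 among them, turn them into moving helicases. Transcription of most of these genes is controlled by E2F factors and rises in cells that enter the cycle, which is why MCM proteins are used as proliferation markers in glioma. In bulk RNA, fewer cycling cells and less licensing RNA per cell cannot be told apart.

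In the GENCODE annotation of GRCh38, the helicase subunits other than MCM4 lie at chr3:127598410-127622436 (MCM2), chr6:52264014-52284881 (MCM3), chr22:35400134-35425431 (MCM5), chr2:135839626-135876443 (MCM6) and chr7:100092233-100101940 (MCM7). MCM10 lies at chr10:13161558-13211110, CDC6 at chr17:40287879-40304657, CDT1 at chr16:88803789-88809258 and ORC1 at chr1:52372829-52404423. MCM7 holds the microRNA genes MIR25, MIR93 and MIR106B on its own strand and shares 392 bases with AP4M1 on the other strand, and MCM2 shares 2331 bases with an antisense long noncoding RNA gene. The counting's strand setting is not given in the sources used here, and the library kit named in the labels does not mark strand, so reads from these shared stretches cannot be told apart.

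The RefSeq promoter set for GRCh38.p14 (250 bases before to 50 after each start) had entries for 8 of the 10 genes, with 10 starts in all; MCM4 and MCM5 had none. An E2F-type core, spelled TTCCCGC or TTCGCGC, and equally TTGCCGC or TTGGCGC, and searched on both strands, occurred in the promoter entries of 7 of these 8 genes, and in 13% of all 35116 promoters of the same length. The letters CCAAT occurred in 6 of the 8 genes and in 34.6% of all promoters. The CHR letters, TTTGAA or TTCGAA, occurred in MCM6 alone, against 16.4% of all promoters. A match of letters is a description of the window and not a measured binding site. The bases upstream of the start are shown for 4 genes whose levels moved differently below: ORC1 and CDT1, which rose in U251 under IFN-γ, MCM6, which fell there, and MCM10, which fell most after the withdrawal schedule. Each is written 5′ to 3′ on the gene's strand with the E2F-type cores in capitals, for ORC1 at chr1:52404424-52404601 (minus strand, ended where the gene PRPF38A begins), MCM6 at chr2:135876444-135876693 (minus strand), CDT1 at chr16:88803539-88803788 (plus strand) and MCM10 at chr10:13161308-13161557 (plus strand).
ORC1: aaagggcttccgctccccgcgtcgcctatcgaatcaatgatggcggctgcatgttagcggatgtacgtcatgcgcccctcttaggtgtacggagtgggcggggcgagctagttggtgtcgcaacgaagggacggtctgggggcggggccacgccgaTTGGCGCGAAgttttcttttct
MCM6: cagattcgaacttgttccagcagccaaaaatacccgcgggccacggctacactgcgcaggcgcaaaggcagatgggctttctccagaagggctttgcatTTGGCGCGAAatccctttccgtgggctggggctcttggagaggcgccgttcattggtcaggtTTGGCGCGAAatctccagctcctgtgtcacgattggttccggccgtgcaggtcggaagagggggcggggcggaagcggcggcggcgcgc
CDT1: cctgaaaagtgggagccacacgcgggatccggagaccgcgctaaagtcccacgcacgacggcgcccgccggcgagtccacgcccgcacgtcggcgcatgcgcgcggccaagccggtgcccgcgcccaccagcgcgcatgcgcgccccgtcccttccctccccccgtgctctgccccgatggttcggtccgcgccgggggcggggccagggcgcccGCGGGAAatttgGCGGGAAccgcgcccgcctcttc
MCM10: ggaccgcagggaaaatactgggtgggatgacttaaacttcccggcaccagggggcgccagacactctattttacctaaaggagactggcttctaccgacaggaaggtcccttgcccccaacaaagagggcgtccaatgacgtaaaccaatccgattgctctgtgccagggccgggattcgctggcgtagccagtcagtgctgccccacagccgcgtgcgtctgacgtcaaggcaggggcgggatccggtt
In ORC1 and MCM6 each capital run is a pair of overlapping cores read on opposite strands, and MCM6 has 2 such runs. CDT1 has 2 separate cores, and MCM10, which has none in this window, has CCAAT letters at 2 places.

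In untreated cells the mean levels of the 6 subunit genes lay between 119 and 216 TPM in U87 and between 80.9 and 189.9 TPM in U251. In U87 the order by mean level was MCM5 (216 TPM), MCM4 (199), MCM7 (198), MCM2 (189.96), CDC6 (188), MCM3 (149), MCM6 (119), CDT1 (68.5), MCM10 (34.9) and ORC1 (29.4), each over 3 libraries. From MCM5 to CDC6 each gene overlapped the next in its library values, as did MCM10 and ORC1, whereas CDC6, MCM3, MCM6 and CDT1 were each separated from the next in the order. In U251 the order was MCM4 (189.9 TPM), MCM7 (181), MCM2 (137), MCM5 (122), CDC6 (118), MCM3 (105), MCM6 (80.9), CDT1 (29.2), MCM10 (20.3) and ORC1 (15). There MCM7 and MCM2 did not overlap, nor did MCM3 and MCM6, MCM6 and CDT1, or MCM10 and ORC1. MCM6 was the lowest of the 6 subunits in both lines, although the subunits enter the ring in equal numbers as proteins.

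**Figure D1:**
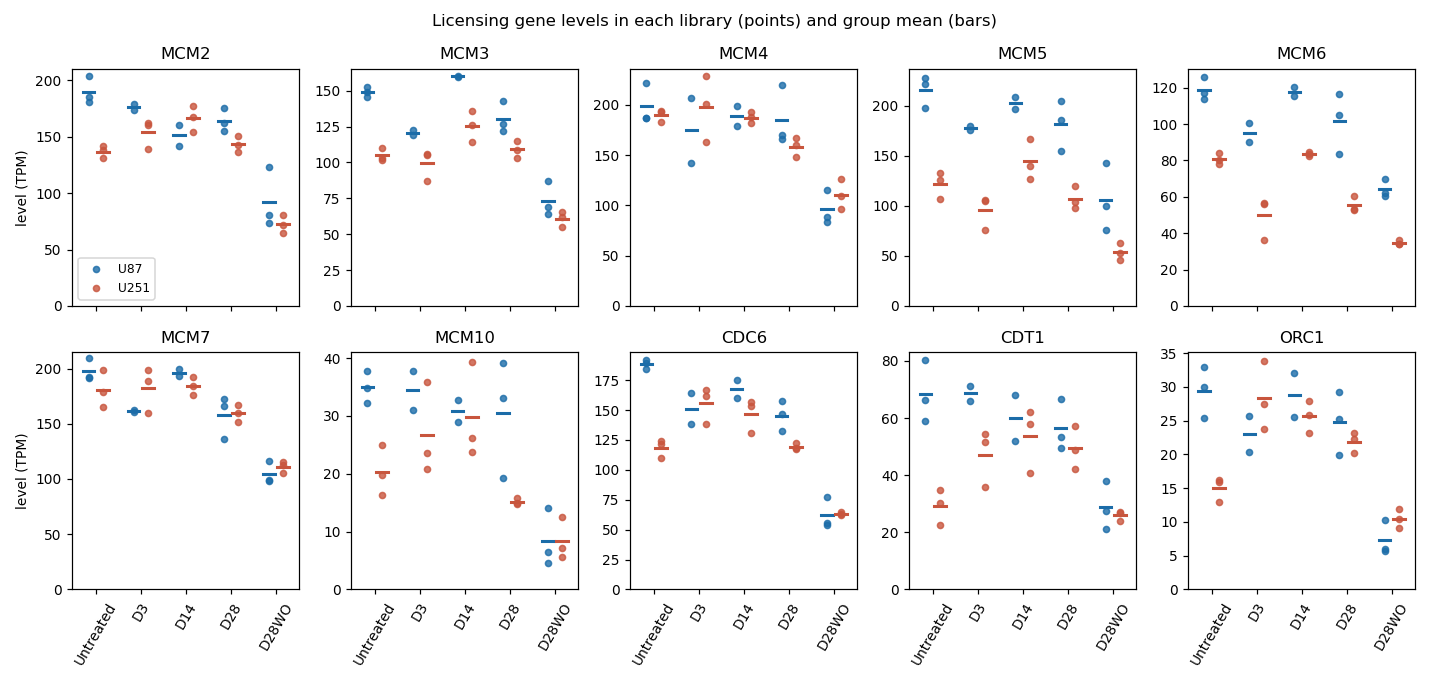
Level of each licensing gene in TPM (vertical axis, from 0, scaled per gene) in every library of U87 (blue) and U251 (red) by condition; points are libraries and bars are group means. In U87 all D28WO libraries lie below all Untreated libraries for all 10 genes, as for 16.6% of all genes. In U251 the same holds for 9 genes, CDT1 being the exception, and for 19.5% of all genes.

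In U87 all 10 genes were lower in the D28WO libraries than in Untreated. Changes are given as log2 fold changes of TPM + 1, tested with limma across all 22918 genes that passed the filter, with Benjamini-Hochberg adjusted p-values, and a gene is called where its adjusted p is under 0.05. Of all genes, 13.4% were called lower in this comparison, against 10 of the 10 licensing genes, and 8 of them also fell by more than 1 on the log2 scale, as did 2.12% of all genes. In every one of the 10 genes the highest D28WO library lay below the lowest Untreated library, a separation in this direction shown by 16.6% of all genes. The median change of the 10 genes was -1.06, while the median of all genes was 0.25, so TPM values of most other genes were slightly higher. Under median-ratio scaling the median of all genes was 0.06, and 20.7% of all genes were called lower and 20.1% higher, in place of 13.4% and 28.6%. The levels left in D28WO ran from 23.8% to 54.0% of the Untreated mean.

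MCM10, which helps to start and keep the helicase moving, fell most. Its level was 37.7, 32.2 and 34.8 TPM in the Untreated libraries of U87 and 4.51, 6.41 and 14.0 TPM in the D28WO libraries. The groups lay far apart, with the third D28WO library the highest of its group. The change in MCM10 was -2.08 ± 0.32 (SE; limma adjusted p = 0.000365).

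The loading factors fell next. ORC1, the largest subunit of the origin recognition complex, was at 29.9, 32.9 and 25.4 TPM in Untreated and at 5.74, 5.995 and 10.3 TPM in D28WO, a change of -1.90 ± 0.22 (limma adjusted p = 3.9e-05). CDC6, the ATPase that joins ORC to load the rings, was at 184, 192 and 189 TPM in Untreated and at 53.8, 55.3 and 77.0 TPM in D28WO. CDC6 thus changed by -1.61 ± 0.13 (limma adjusted p = 2.61e-06), and the third D28WO library was again the highest. CDT1, which brings the MCM ring to the origin, fell from a mean of 68.5 ± 10.7 (SD, n = 3) to 28.8 ± 8.42 TPM (n = 3), a change of -1.25 ± 0.19 (limma adjusted p = 0.000358).

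The 6 helicase subunits fell by similar amounts, from -0.88 in MCM6 to -1.07 in MCM2. MCM2 was at 185, 204 and 181 TPM in Untreated and at 73.4, 80.7 and 123 TPM in D28WO. MCM5 was at 198, 221 and 228 TPM in Untreated and at 75.6, 99.9 and 143 TPM in D28WO, the widest spread of the 6 subunits in D28WO. MCM6 was the least changed, at 117, 114 and 126 TPM in Untreated and 62.3, 60.6 and 69.9 TPM in D28WO. Its change was -0.88 ± 0.11 (limma adjusted p = 7.67e-05). The adjusted p of the other 5 subunits ran from 1.37e-05 in MCM3 to 0.000612 in MCM5. Summed over MCM2 to MCM7, the level was 1070 ± 47.4 TPM (SD, n = 3) in Untreated and 537 ± 104 TPM (n = 3) in D28WO, or 50.2% of the Untreated mean.

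The third D28WO library of U87 was the highest of its group for all 10 genes. Without it the median change of the 10 genes against Untreated was -1.29, and without the first D28WO library it was -0.95, with all 10 genes called either way. The calls of all 10 genes against Untreated held under every alternative run, including the fit without the libraries labelled D14.

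D28WO was also lower than the other treated conditions of U87. Against D28, all 10 genes were called lower (8.44% of all genes), with a median change of -0.90 and values from -0.59 in MCM7 to -1.83 in MCM10. Against the libraries labelled D14, all 10 were called lower (11.5% of all genes), with a median of -1.02. The D28WO libraries are common to these comparisons, so these are not independent of the comparison with Untreated. When only the 2 compared groups entered the fit, MCM5 lost its call against D28 (limma adjusted p = 0.0772), and MCM2, MCM5 and CDT1 lost theirs against D14 (limma adjusted p = 0.0912, 0.0632 and 0.0503). Without the third D14 library, MCM2 and CDT1 also lost their calls against D14.

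Under continued IFN-γ few licensing genes of U87 were called. At D3 none of the 10 was called, while 4.28% of all genes were called lower and 12.4% higher, and 4 of the 10 had an unadjusted p under 0.05, all with lower values. The median of the 10 was -0.28 against 0.20 for all genes. At D3 MCM3 was at 119 and 123 TPM, below all 3 Untreated libraries at 146, 149 and 153 TPM, but its limma adjusted p was 0.0896. In the libraries labelled D14 none of the 10 was called, and none had an unadjusted p under 0.05 (1.02% of all genes were called lower and 4.14% higher), with a median of -0.08 against 0.15; this median was -0.04 without the second D14 library and -0.17 without the third. At D28 MCM7 and CDC6 were called lower, against 6.55% of all genes, with changes of -0.33 ± 0.09 (limma adjusted p = 0.0268) and -0.38 ± 0.13 (limma adjusted p = 0.048).

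These D28 calls lie close to the threshold. MCM7 was at 192, 192 and 209 TPM in Untreated and at 136, 172 and 166 TPM at D28, without overlap, and CDC6 at D28 was at 157, 147 and 132 TPM. Without the first D28 library or without the third Untreated library of U87, neither MCM7 nor CDC6 was called. CDC6 alone lost its call without any other Untreated or D28 library, without any library of D3 or D14, and without the second D28WO library. In these fits the change of CDC6 stayed between -0.43 and -0.31, and that of MCM7 was -0.22 without the first D28 library and -0.28 without the third Untreated one. Under quantile normalization MCM7 changed by -0.18 and CDC6 by -0.26, and neither was called (limma adjusted p = 0.197 and 0.228). Both calls were also lost with no filter on low values and with array weights. With median-ratio scaling 4 genes were called lower at D28 (12.8% of all genes under that scaling) and 4 at D3 (8.51%), and the medians of the 10 genes were -0.48 at D3, -0.26 at D14 and -0.44 at D28. Between the treated conditions of U87, no gene was called for D14 against D3 (3 at an unadjusted p under 0.05; 1.47% of all genes called higher and 3.32% lower) or for D28 against D14 (2 at an unadjusted p under 0.05; 2.94% called higher and 1.12% lower).

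**Figure D2:**
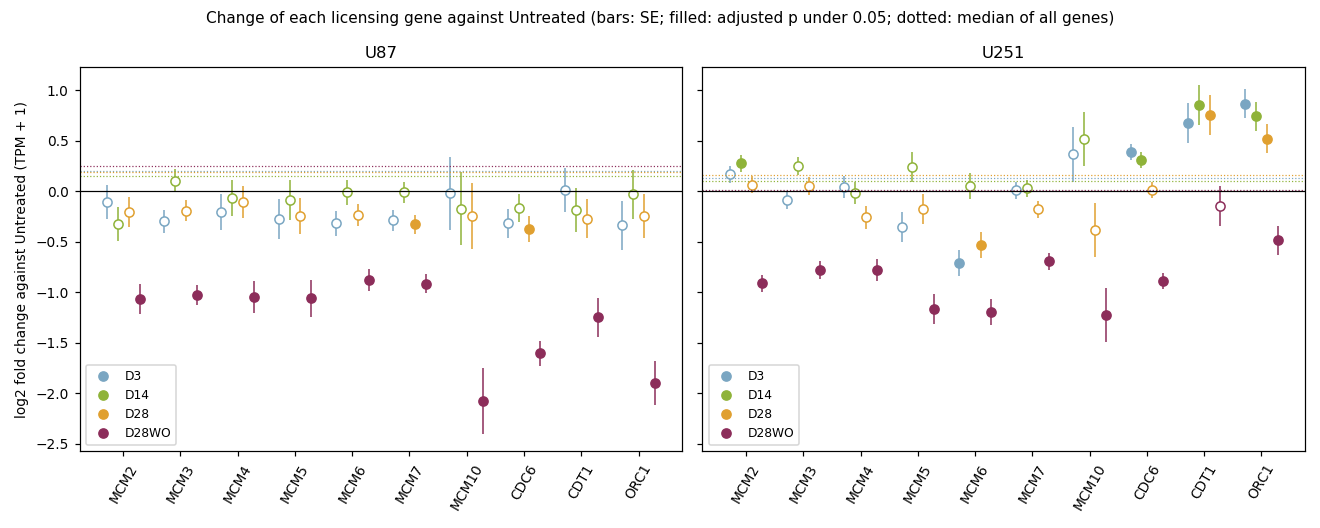
Change of each licensing gene against Untreated (vertical axis, log2 fold change of TPM + 1) in U87 (left) and U251 (right) for D3, D14, D28 and D28WO; bars are standard errors, filled points have a limma adjusted p under 0.05, and dotted lines mark the median of all genes. In U87 the D28WO points run from -2.08 to -0.88 while the other conditions stay near 0, and in U251 ORC1 and CDT1 lie above 0 at D3, D14 and D28 while MCM6 lies below 0 at D3 and D28.

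In U251 the D28WO libraries were again low, for all genes but CDT1. Of the 10 genes, 9 were called lower than in Untreated, against 13.4% of the 23667 genes tested, and 3 of them (MCM10, MCM6 and MCM5) fell by more than 1, as did 3.38% of all genes. All libraries of these 9 genes lay below all Untreated libraries, as for 19.5% of all genes. The median change was -0.84 against 0.02 for all genes.

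Among the subunits, MCM6 and MCM5 fell most. MCM6 was at 80.3, 84.4 and 78.0 TPM in the Untreated libraries of U251 and at 33.9, 36.4 and 34.2 TPM in D28WO. Its groups lay far apart with little spread, and its change was -1.19 ± 0.13 (limma adjusted p = 9.46e-06). MCM5 was at 126, 133 and 107 TPM in Untreated and at 45.6, 53.4 and 62.6 TPM in D28WO, a change of -1.17 ± 0.15 (limma adjusted p = 4.52e-05). MCM7 changed least of the 6, by -0.70 ± 0.08 (limma adjusted p = 2.71e-05). The summed MCM2 to MCM7 level went from 816 ± 8.28 TPM (SD, n = 3) to 444 ± 20.2 TPM (n = 3), or 54.4% of the Untreated mean.

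MCM10 was at 24.9, 19.8 and 16.3 TPM in Untreated and at 7.23, 12.5 and 5.53 TPM in D28WO of U251, a change of -1.23 ± 0.27 (limma adjusted p = 0.00352). CDC6 was at 121, 124 and 109.8 TPM in Untreated and at 62.3, 62.8 and 64.6 TPM in D28WO, a change of -0.89 ± 0.08 (limma adjusted p = 1.68e-06). ORC1 changed by -0.49 ± 0.14 (limma adjusted p = 0.0204), from 15.9, 16.2 and 12.9 TPM to 11.9, 9.05 and 10.4 TPM. Its groups were narrowly separated, and the call was lost without the first or second Untreated library, without the second or the third D28WO library, and when only the 2 groups entered the fit. CDT1 was at 34.9, 30.3 and 22.4 TPM in Untreated and at 26.6, 23.8 and 27.2 TPM in D28WO, with the groups overlapping and a limma adjusted p of 0.647.

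Against D28 all 10 genes of U251 were called lower (18.8% of all genes), with a median of -0.87 against -0.12 for all genes, and against D14 all 10 were called lower (15.8% of all genes), with a median of -1.19. CDT1 was among them, at 48.9, 42.2 and 57.3 TPM in D28 and at 23.8 to 27.2 TPM in D28WO, without overlap; its change against D28 was -0.90 ± 0.20 (limma adjusted p = 0.00359). The call of MCM10 against D28 (-0.84 ± 0.27, limma adjusted p = 0.0308) was lost in 8 of 24 alternatives, among them the fits without any library of D28, without the first and without the third D28WO library. The other 9 kept their calls against D28 in every alternative run, and all 10 did so against D14.

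Under IFN-γ, ORC1 and CDT1 were called higher in U251 in all 3 conditions, and CDC6 in 2 of them. At D3, ORC1, CDT1 and CDC6 were called higher (24.9% of all genes), in the libraries labelled D14 these 3 and MCM2 were called higher (13.8% of all genes), and at D28 CDT1 and ORC1 were (25.9% of all genes). ORC1 rose most at D3, from 15.9, 16.2 and 12.9 TPM in Untreated to 33.7, 23.8 and 27.4 TPM, a change of 0.86 ± 0.14 (limma adjusted p = 0.000267). It was at 23.2 to 27.9 TPM in D14 and at 20.1 to 23.1 TPM in D28, so that every IFN-γ library of ORC1 labelled D3, D14 or D28 lay above every Untreated one.

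CDT1 was at 54.3, 35.8 and 51.6 TPM at D3, at 40.8, 58.0 and 62.0 TPM in D14 and at 42.2 to 57.3 TPM in D28, against 22.4 to 34.9 TPM in Untreated. No library of these conditions overlapped Untreated, and the changes were 0.68 ± 0.20, 0.85 ± 0.20 and 0.75 ± 0.20 (limma adjusted p = 0.0137, 0.00722 and 0.00745). The D3 call of CDT1 was lost without the first or the third D3 library, without the third Untreated library and when only the 2 groups entered the fit, and its D14 call was lost in that 2-group fit as well (limma adjusted p = 0.0554).

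CDC6 was at 166, 162 and 138 TPM at D3, above 110 to 124 TPM in Untreated, a change of 0.39 ± 0.08 (limma adjusted p = 0.00144). In D14 CDC6 changed by 0.31 ± 0.08 (limma adjusted p = 0.0142), and MCM2 by 0.28 ± 0.08 (limma adjusted p = 0.0314). Both of these D14 calls were lost without the third Untreated library, without the second or the third D14 library and under median-ratio scaling; MCM2 also lost its call without the second Untreated library and with no filter on low values, and CDC6 when only the 2 groups entered the fit. Under quantile normalization the D28 call of ORC1 was lost, its change falling from 0.52 to 0.28 (limma adjusted p = 0.12). The percentages of all genes called higher at D3 and D28 were close to the share of the 10 genes, and the medians of the 10 genes were 0.10, 0.26 and -0.08 at D3, D14 and D28, against 0.13, 0.10 and 0.16 for all genes. Median-ratio scaling gave -0.0018 at D3, 0.17 in D14 and -0.20 at D28, quantile normalization gave -0.028 at D28, and leaving out 1 library gave 0.054 to 0.17 at D3.

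MCM6 moved the other way in U251. At D3 it was at 56.2, 36.5 and 56.7 TPM, below the Untreated libraries at 78.0 to 84.4 TPM, a change of -0.72 ± 0.13 (limma adjusted p = 0.000511). It was the only gene of the 10 called lower at D3 (16% of all genes) and at D28 (14.7% of all genes). A count of 1 in 10 is no more than these shares. At D28 MCM6 was at 53.2, 60.4 and 53.0 TPM and changed by -0.54 ± 0.13 (limma adjusted p = 0.00427). Under median-ratio scaling 5 of the 10 genes were called at D28 in either direction, in place of 3. In the libraries labelled D14 MCM6 was at 83.5, 82.5 and 84.8 TPM, within the Untreated range but for the highest library, with a limma adjusted p of 0.845. These calls held in all 25 alternatives at D3 and all 25 at D28, with values from -0.82 to -0.51 and from -0.66 to -0.50.

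The treated conditions of U251 were also set against each other, in the same fit, so that these changes are differences of those above and not independent of them. MCM6 was higher in D14 than in D3 by 0.76 ± 0.13 (limma adjusted p = 0.000655), and lower in D28 than in D14 by a change of -0.58 ± 0.13 (limma adjusted p = 0.00516). MCM5 (0.60 ± 0.15) and MCM3 (0.34 ± 0.09) were also called higher in D14 than in D3 (limma adjusted p = 0.009 and 0.0135; 12.8% of all genes), MCM3 losing its call without the second D3 or the third D14 library, and both losing theirs when only the 2 groups entered the fit. MCM10 (-0.90 ± 0.27) and CDC6 (-0.29 ± 0.08) were called lower in D28 than in D14 (limma adjusted p = 0.0297 and 0.0185; 9.48% of all genes). Both lost their calls without the second or the third D14 library and without the first or second D28 library, and MCM10 also without the third D28 library. The IRF1 mean of U251 in D14 lay between those of Untreated and D3, whereas the MCM6 mean in D14 did not, and the part of the interferon response in these values was not tested.

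The make-up of the helicase transcript pool was compared between conditions. In U87 the share of each subunit in the summed MCM2 to MCM7 TPM differed little between Untreated and D28WO: MCM2 made up 17.8% ± 1.46 (SD, n = 3) in Untreated and 17.0% ± 1.57 (n = 3) in D28WO, and MCM6 made up 11.1% ± 0.41 and 12.2% ± 1.48, with overlapping libraries. In the U87 libraries labelled D14 the MCM2 share was 14.1% and 15.7%, below the 16.2% to 19.1% of Untreated, and the MCM3 share was 15.6% and 15.8%, above the 13.6% to 14.2% of Untreated. In U251 the MCM6 share was 9.52% to 10.3% in the Untreated libraries, 5.22% to 7.19% at D3, 9.005% to 9.99% in D14, 6.94% to 8.59% at D28 and 7.33% to 8.29% in D28WO. The D3, D28 and D28WO libraries all lay below the Untreated ones, and D14 overlapped them. The MCM2 share of U251 was 16.8% ± 0.82 in Untreated and 19.8% ± 0.56 at D3, without overlap. It was 18.4% to 18.8% in D14 and 18.7% to 20.6% at D28, also above all Untreated libraries, and overlapped them in D28WO. The MCM7 share of U251 was 22.2% ± 1.94 in Untreated and 25.04% ± 0.59 in D28WO, again without overlap. These shares are descriptions with 2 or 3 libraries a group and carry no test.

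**Figure D3:**
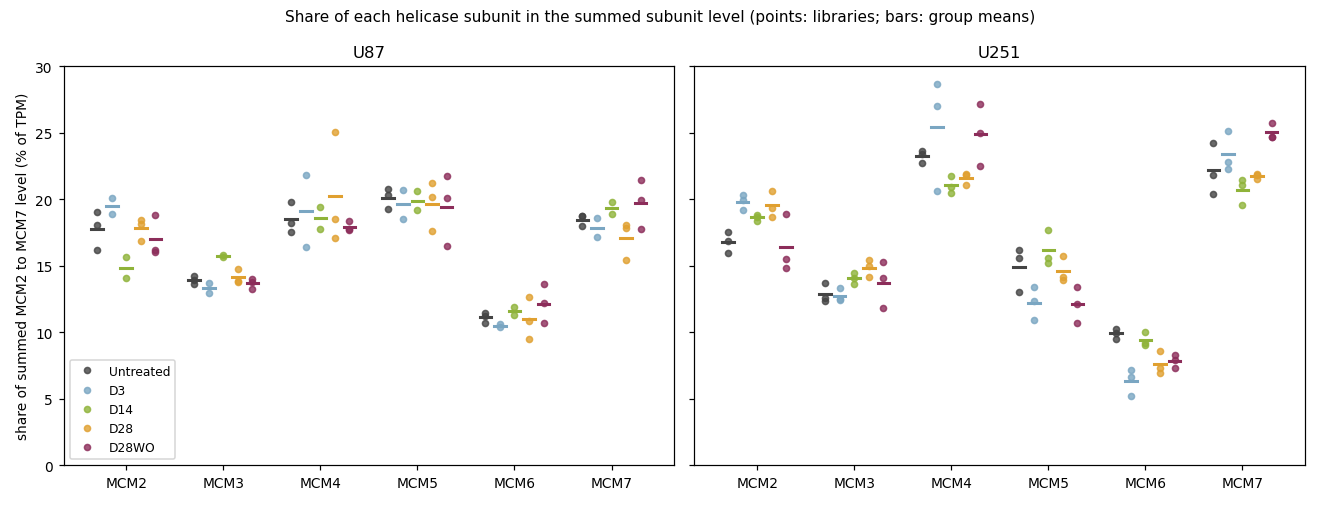
Share of each helicase subunit in the summed MCM2 to MCM7 level (vertical axis, % of TPM, from 0) for U87 (left) and U251 (right); points are libraries and bars are group means, coloured by condition. The MCM6 share of U251 averages 9.92% in Untreated, 6.35% at D3, 9.40% in D14, 7.60% at D28 and 7.85% in D28WO, whereas in U87 its means lie between 10.50% and 12.2%.

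The level of ORC1 relative to MCM6 was higher than in Untreated in all conditions of U251, with opposite moves of both genes at D3 and D28 and both called lower in D28WO. At D3 and D28 this ratio restates the opposite calls of these genes in the same libraries and is no separate result. The ORC1 level was 0.166 to 0.198 of the MCM6 level in Untreated, 0.483 to 0.650 at D3, 0.278 to 0.329 in D14, 0.333 to 0.437 at D28 and 0.249 to 0.351 in D28WO. In U87 the ratio was 0.202 to 0.289 in Untreated, 0.227 to 0.256 at D3 and 0.0922 to 0.148 in D28WO, below all Untreated libraries. The ratio of CDT1 to its inhibitor geminin (GMNN) overlapped between Untreated and D28WO in both lines, at 0.981 to 1.24 and 0.655 to 1.04 in U87 and at 0.261 to 0.444 and 0.328 to 0.414 in U251. It lay above Untreated at D28 in U251, at 0.542 to 0.691, and below it in the U87 libraries labelled D14, at 0.809 and 0.885, and overlapped Untreated at D3 in both lines, at D28 in U87 and in D14 in U251.

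The rest of the origin recognition and licensing control genes (ORC2 to ORC6, GMNN, the MCM-binding protein gene MCMBP, and the kinase genes CDC7, DBF4 and DBF4B) were called in part in D28WO, 6 of 10 in U87 and 4 of 10 in U251. In U87, 4 of these 10 were called lower and 2 higher (13.4% and 28.6% of all genes), with a median of -0.10 against 0.25 for all genes. GMNN went from 64.0 to 35.4 TPM (-0.84, limma adjusted p = 0.000842), CDC7 from 23.7 to 14.5 TPM (-0.68, limma adjusted p = 0.00582) and MCMBP from 97.0 to 69.3 TPM (-0.48, limma adjusted p = 7.6e-05), while ORC2 rose from 73.8 to 93.6 TPM (0.35, limma adjusted p = 0.0155). In U251, 1 was called lower and 3 higher in D28WO (13.4% and 14.3% of all genes), with a median of 0.04. CDC7 fell from 14.3 to 8.62 TPM (-0.67, limma adjusted p = 0.00539), and ORC5 rose from 70.6 to 94.5 TPM (0.42, limma adjusted p = 0.00688).

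Under IFN-γ several of these control genes were called higher in U251. At D3, 7 of the 10 were called higher and 0 lower by limma (24.9% of all genes higher), in D14 6 were higher (13.8%), and at D28 4 were higher (25.9%) and 1 lower (14.7%). ORC6, the smallest ORC subunit, went from 73.5 TPM in Untreated to 137 at D3 and 140 at D28 (0.89 and 0.92, limma adjusted p = 4.37e-06 and 2.87e-06). DBF4B, an activating subunit of the CDC7 kinase, rose from 19 to 32.6 TPM at D3 and 50.4 TPM at D28 (0.74 and 1.36, limma adjusted p = 3.14e-05 and 8.42e-08). None of the 10 was called in U87 by limma at D3, D14 or D28 (2, 0 and 1 at an unadjusted p under 0.05), against 4.28%, 1.02% and 6.55% of all genes lower and 12.4%, 4.14% and 17.2% higher.

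Of the MCM relatives outside the ring, MCM8, a helicase of recombination repair, was called lower in D28WO of U251 (from 28.0 to 15.3 TPM, -0.84, limma adjusted p = 0.000166) and higher at D3, D14 and D28 there, reaching 46.6 TPM in D14 (0.71, limma adjusted p = 0.00111). MCM8 was at 25.3 TPM in Untreated and 22.1 TPM in D28WO of U87 (limma adjusted p = 0.268). MCM9 was not called in either line in any comparison, and MCMDC2 did not pass the filter on low values.

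The firing factors and the replication fork genes moved with the licensing genes in D28WO. Of 14 helicase activation and firing genes, 11 were called lower in U87 (median -0.69) and 9 in U251 (median -0.47), against 13.4% of all genes in each line, and none was called higher. GINS2, a subunit of the GINS complex that joins the ring to make the active helicase, went from 70.8 to 22.9 TPM in U87 (-1.61, limma adjusted p = 5.06e-06) and from 53.3 to 16.9 TPM in U251 (-1.62, limma adjusted p = 1.37e-07). CDC45, its partner in the active helicase, went from 105 to 47.0 TPM in U87 (-1.16, limma adjusted p = 0.000266) and from 44.8 to 13.4 TPM in U251 (-1.68, limma adjusted p = 1.72e-06).

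Of 24 fork genes, 21 were called lower in U87 (median -0.55) and 15 in U251 (median -0.39), against the same 13.4% of all genes, and none higher in either. FEN1, the flap nuclease of Okazaki fragment maturation, went from 154 to 56.8 TPM in U87 (-1.44, limma adjusted p = 5.27e-06) and from 110.01 to 44.5 TPM in U251 (-1.29, limma adjusted p = 5.83e-07). LIG1, which seals those fragments, went from 68.4 to 33.1 TPM in U87 (-1.02, limma adjusted p = 0.00424) and from 58.8 to 18.8 TPM in U251 (-1.62, limma adjusted p = 2.62e-06).

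Of 9 genes for CDT1 turnover, 7 were called lower in U87 and 5 in U251 (13.4% of all genes in each). SKP2, the F-box protein gene of a ligase that marks CDT1, went from 61.6 to 22.7 TPM in U87 (-1.40, limma adjusted p = 3.44e-06). DTL, the substrate receptor that marks CDT1 on replicating DNA, went from 47.6 to 24.2 TPM in U251 (-0.95, limma adjusted p = 0.000133). The 19 E2F, RB and DREAM genes included 7 lower and 5 higher in U87 and 6 lower and 3 higher in U251, against 13.4% of all genes lower and 28.6% higher in U87 and 13.4% lower and 14.3% higher in U251, so the counts of higher genes were near these shares. The activator gene E2F1 went from 92.9 to 39.5 TPM in U87 (-1.24, limma adjusted p = 1.41e-05) and from 52.4 to 23.8 TPM in U251 (-1.11, limma adjusted p = 8.64e-07), whereas E2F5, which works mainly with the repressive pocket proteins, went from 17.2 to 51.7 TPM in U87 (1.53, limma adjusted p = 8.44e-06) and from 57.4 to 100.9 TPM in U251 (0.80, limma adjusted p = 1.93e-06).

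**Figure D4:**
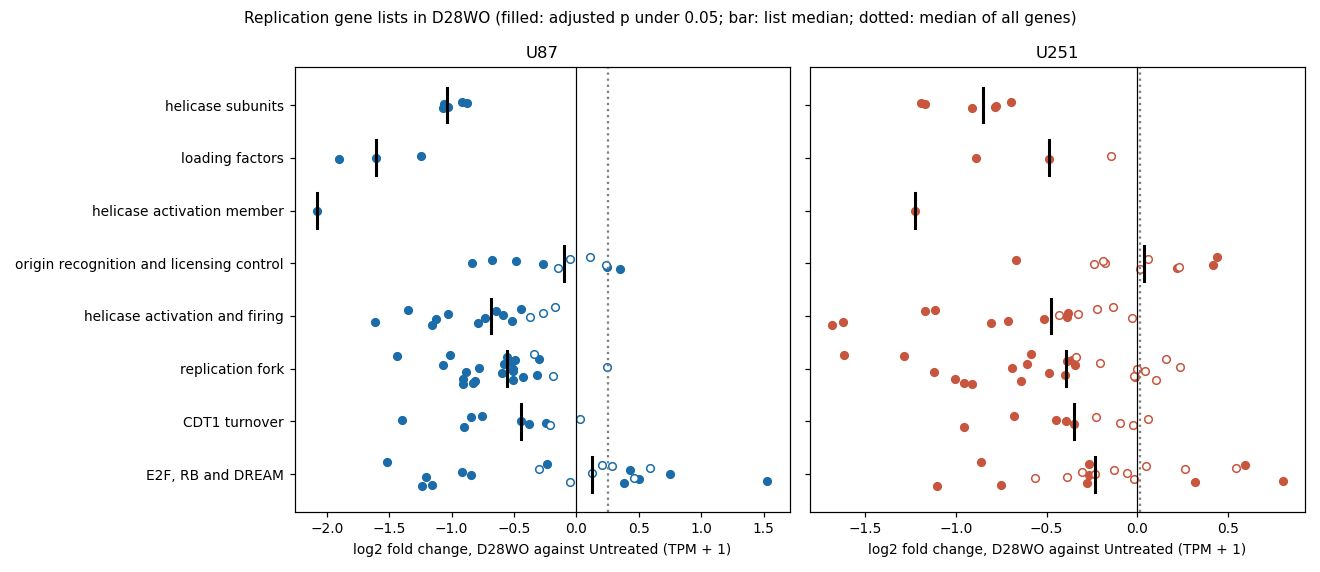
Change in D28WO against Untreated (horizontal axis, log2 fold change of TPM + 1) for each gene of 8 replication gene lists in U87 (left) and U251 (right); filled points have a limma adjusted p under 0.05, black bars are list medians and the dotted line is the median of all genes. The medians of the helicase subunits (-1.04 and -0.85) lie left of those of the fork genes (-0.55 and -0.39), although single fork genes such as FEN1 lie left of all 6 subunits, while the origin recognition and licensing control genes centre near 0 (medians -0.10 and 0.04).

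Under IFN-γ the firing genes of U251 were called higher in 8 of 14 at D3, 10 of 14 in D14 and 9 of 14 at D28, against 24.9%, 13.8% and 25.9% of all genes, with 1, 0 and 1 called lower. The gene lower at D28 was GINS2 (from 53.3 to 32.0 TPM, -0.72, limma adjusted p = 0.000182), the same direction as MCM6. MTBP, a partner of the firing factor TICRR, went from 17.0 to 35.4 TPM at D3 (0.99, limma adjusted p = 0.000156). Against the same shares, 6, 10 and 6 of the 24 fork genes of U251 were called higher at D3, D14 and D28, and 3, 1 and 4 lower. The CDT1 turnover genes of U251 went mostly the other way. Of these 9, 4 were called lower at D3 (16% of all genes), 0 in D14 and 5 at D28 (14.7%), with 1 called higher each time. In U87 no firing gene was called by limma at D3, D14 or D28 (1, 0 and 2 at an unadjusted p under 0.05), against 4.28%, 1.02% and 6.55% of all genes lower and 12.4%, 4.14% and 17.2% higher. Against the same shares, 2, 0 and 9 of the 24 fork genes of U87 were called lower at D3, D14 and D28. Of the 9 CDT1 turnover genes, 1, 1 and 2 were called lower there. No gene of these 2 lists was called higher in these comparisons.

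The 10 genes moved together across libraries, with higher correlations in U87. Over the 13 U87 libraries the Pearson correlation between pairs of the 10 genes on the log2 scale ran from 0.82 to 0.98 with a median of 0.93 over 45 pairs. Over the 15 U251 libraries it ran from 0.37 (MCM6 and CDT1) to 0.95, with a median of 0.80. All 10 genes share these libraries, of which the D28WO ones were the lowest for all genes but CDT1 of U251, so these values are descriptions and carry no test. Ranked by correlation with the mean standardized level of the 10 genes, the most similar other genes in U87 were UHRF1 (0.996), FEN1 (0.993), UBR7 (0.990), TCF19 (0.987) and FAM111B (0.987). In U251 they were FEN1 (0.973), RRM2 (0.972), HELLS (0.969), CCNE2 (0.968) and PCLAF (0.964). Of these, UHRF1 and HELLS maintain DNA methylation, RRM2 supplies deoxynucleotides, CCNE2 is a cyclin of S phase entry and PCLAF binds the sliding clamp.

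The IRF1 level and the summed helicase subunits were set side by side in each library. In U87 the D28 and D28WO libraries had IRF1 at 443 to 539 TPM and 457 to 545 TPM, overlapping, while their summed MCM2 to MCM7 levels were 879 to 967 TPM and 457 to 655 TPM, without overlap. In U251 the D28 and D28WO libraries had IRF1 at 559 to 674 TPM and 588 to 663 TPM, and summed levels of 704 to 764 TPM and 426 to 466 TPM.

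**Figure D5:**
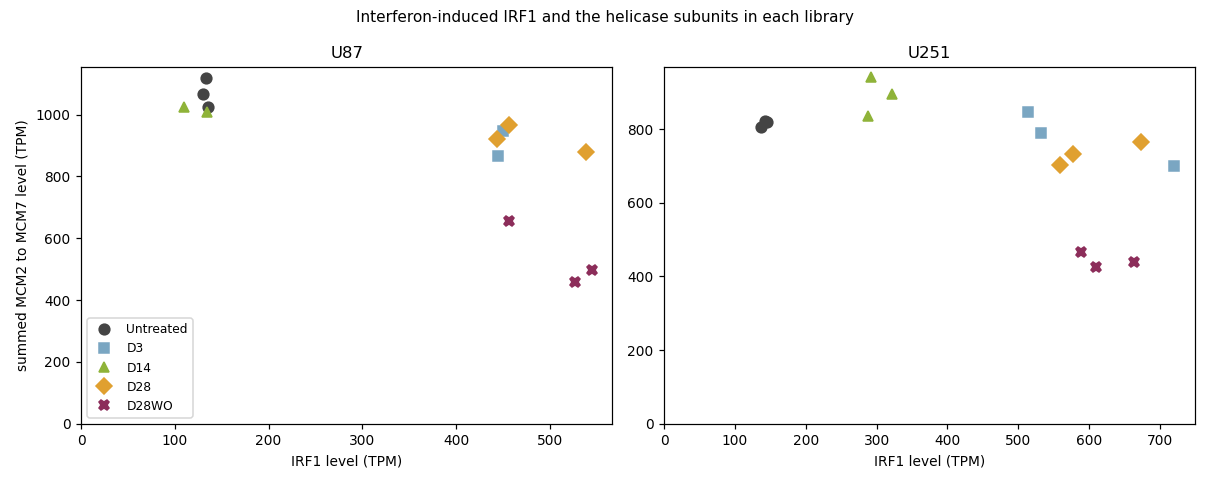
IRF1 level (horizontal axis, TPM) against the summed MCM2 to MCM7 level (vertical axis, TPM) in each library of U87 (left) and U251 (right), with a symbol per condition and both axes from 0. The D28WO libraries have the lowest summed levels, 457 to 655 TPM in U87 and 426 to 466 TPM in U251, at IRF1 levels that overlap those of D28.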

How the data were processed

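RNA from 30 samples of U87 and U251 was sequenced, and the authors deposited 1 table per line of TPM values (levels scaled to the same total in every column), with genes in rows. The labels and the study's methods name FastQC, Trim Galore, STAR, featureCounts and GRCh38; how TPM was made from the counts is not given in the sources used here. No counts were used, and the study's methods state only a minimum depth, so the depth of each library is unknown and no interval or floor is given. Of the U87 table, 2 columns of per-sample values with the same name were left out. Values were analysed as log2(TPM + 1) with limma 3.58.1 in R 4.3.3, each line in its own fit over all its libraries, keeping genes whose mean reached 0.5 TPM, with p-values adjusted over all genes tested. The fit was tested on simulated data. The lines were scaled separately and were not compared in a test. The 10 members, the gene lists and the tests were chosen with earlier results of these data known. All 10 members are named; of the longer lists, the 3 largest called changes per comparison could be named, and E2F1, E2F5, GINS2, LIG1, FEN1, CDC45, SKP2, DTL and MTBP come from these; genes of the licensing control, MCM family, interferon and marker lists could be named freely. Likeness names the 5 most correlated genes per line. Promoters come from RefSeq and gene positions from GENCODE.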

Additional observations from a re-analysis of the deposited data

Results flagged for a closer look

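Several licensing genes moved in opposite directions in the 2 lines or at different conditions of U251, in groups of 2 and 3 libraries. In the libraries labelled D14, all MCM2 values lay below all Untreated values in U87 (log2 fold change -0.33) and above them in U251 (0.28). CDC6 showed the same opposition at D3 (-0.32 in U87 and 0.39 in U251) and at D14 (-0.17 in U87 and 0.31 in U251). These differences between the lines were not tested, since the tables were scaled separately, and none of the U87 values was called. The limma adjusted p in U87 was 0.271 for MCM2 at D14, and 0.14 at D3 and 0.509 at D14 for CDC6. The share of all genes with such opposite, separated groups was not counted, so how unusual these oppositions are is not known.

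Within U251, 3 genes were called higher under IFN-γ and lower in D28WO, both against the same Untreated libraries. MCM2 was lower in D28WO than in D14 by a log2 fold change of -1.19, CDC6 by -1.20 and ORC1 by -1.23. ORC1 was also lower in D28WO than in D28, by -1.004. These differences follow from the changes against Untreated in the same fit and are not independent of them. The D28WO side of ORC1 and the D14 side of MCM2 and CDC6 did not hold without single libraries, as given above.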

How the results depend on the processing

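With median-ratio size factors the count of members called against Untreated was 4 at D3 and 4 at D28 in U87 (0 and 2 without it), and 2 at D14 and 5 at D28 in U251 (4 and 3); the member medians of U87 were -0.48 at D3, -0.26 at D14, -0.44 at D28 and -1.30 in D28WO. With this scaling the shares of all genes called lower and higher were 8.51% and 8% at D3 and 12.8% and 11.2% at D28 in U87 (4.28% and 12.4%, and 6.55% and 17.2%, without it), and 19.9% and 20.5% at D3 and 19.5% and 21% at D28 in U251 (16% and 24.9%, and 14.7% and 25.9%). For D28 against Untreated in U87 the count was 0 with no filter, 0 with quantile normalization, 0 with array weights, 1 with only the 2 compared groups and 1 without the libraries labelled D14, an alternative chosen after seeing the data. Without the libraries labelled D28WO, also chosen after seeing the data, 1 member was called at D3 and 1 for D14 against D3 in U87. With only the 2 compared groups, 2 were called at D14 against Untreated and 1 for D14 against D3 in U251 (3 over all groups), and array weights gave 6 for D28 against D14 (3). The numbers in the labels did not pair the samples (correlations of same-numbered deviations from -0.058 to 0.047 in U87 and from -0.037 to 0.048 in U251; 4 of 13 and 5 of 15 libraries correlated best with their own number). With the replicate block 2 members were called at D3 and 1 at D28 against Untreated in U87; it moved no other count by over 1.5 times. Leaving out 1 library at a time gave 0 to 2 members at D28 and 0 to 2 at D3 in U87, 0 to 1 for D14 against D3 in U87, 2 to 5 at D14 against Untreated and 1 to 5 for D28 against D14 in U251; for D14 against D3 in U251 the median went to -0.0045 without the second D3 library. In D28WO the counts against Untreated stayed at 10 in U87 and 8 to 9 in U251. No call reversed. The depth of each library, known only as a stated minimum, limits what can be said of low genes, and the causes of these changes were not tested.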
